A study of Rattus norvegicus with 2 samples.

Results

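The genes described here encode the enzymes and regulators through which the liver takes up, stores, makes and burns glucose, together with the first steps of fructose use, the pentose phosphate pathway and the entry of glycerol. Of 46 genes listed by their known place in these pathways, 43 had a probe set annotated to 1 gene only, out of 14217 such genes on the array. Hk3, G6pc and Ppp1r3c were not analysed here. Each gene was represented by its probe set of highest mean signal.

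In the liver, glycolysis breaks glucose 6-phosphate down to pyruvate, and gluconeogenesis runs most of the same reactions backwards, with its own enzymes where glycolysis is irreversible. Flux between them is set mainly at the step from fructose 6-phosphate to its bisphosphate, where the regulator fructose 2,6-bisphosphate turns glycolysis on and gluconeogenesis off. After a fast, liver glycogen is largely spent and the liver makes glucose from lactate, amino acids and glycerol, the last of which is freed when triglyceride is broken down.

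RNA was taken from the livers of male rats of Wistar stock (outbred laboratory animals) aged 2 months. The treated rats were fasted for 18 h, given 5 mL of extra virgin olive oil by mouth (16 mL per kg) and killed 4 h later, and the control rats were fasted for 18 h and received no fat meal. Olive oil brings triglyceride and no sugar, so that the comparison was of fat after a fast with the fast alone. Each condition was 1 Affymetrix rat array. The labels do not say how many rats gave RNA to an array, nor at what hour either group was killed, nor whether the controls were kept for the extra 4 h. Every difference below is therefore between 2 arrays, without a replicate check and without a p-value. Liver RNA pools all cells of the organ, and less RNA per cell cannot be told apart from fewer cells of a kind.

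The arrays matched in overall level, with a median signal of 44.7 after olive oil and 42.5 in the fasted array over 31042 probe sets. The ratio of 3' to 5' signal of beta-actin, which increases as RNA is degraded, was 3.20 after olive oil and 2.63 in the fasted array. That of Gapdh, itself a glycolytic enzyme gene seen here only through control probe sets, was 1.34 after olive oil and 1.28 in the fasted array. Hepatocyte markers were present at high signal: 7 of 8 were measured, with summed signals of 106894 after olive oil and 99860 in the fasted array, and none was 1.5-fold apart. Genes whose averaged log2 signal was under 5.37, the array-wide median and a signal of 41.4, were treated as too dim and are called below the filter, the others measured. As a yardstick of error, probe sets of 1 gene gave log2 differences with a standard deviation of 0.35 (2290 genes pooled), or 0.23 for probe sets above the 75th percentile (853 genes). This scatter is probe error and holds no variation between rats.

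Most of the glucose and glycogen genes had nearly the same signal on both arrays. Of the 38 that were measured, 29 lay within 1.5-fold, 5 were higher after olive oil by 1.5-fold or more and 4 lower by as much. The higher share was 13.2%, against 9.46% of all 9208 measured genes, and the lower share was 10.5%, against 10.1%. Both shares were near the background, so the counts do not set these genes apart from the rest of the array. None of the 38 reached 2-fold in either direction, against 3.25% of all measured genes higher and 2.94% lower by that size. The signs were evenly split, 19 positive and 19 negative, and the median log2 difference was 0.0016 over these genes and -0.01 over all measured genes. With each array centred on its median the counts were 3 higher and 5 lower, and after loess normalization 3 higher and 4 lower.

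**Figure D1:**
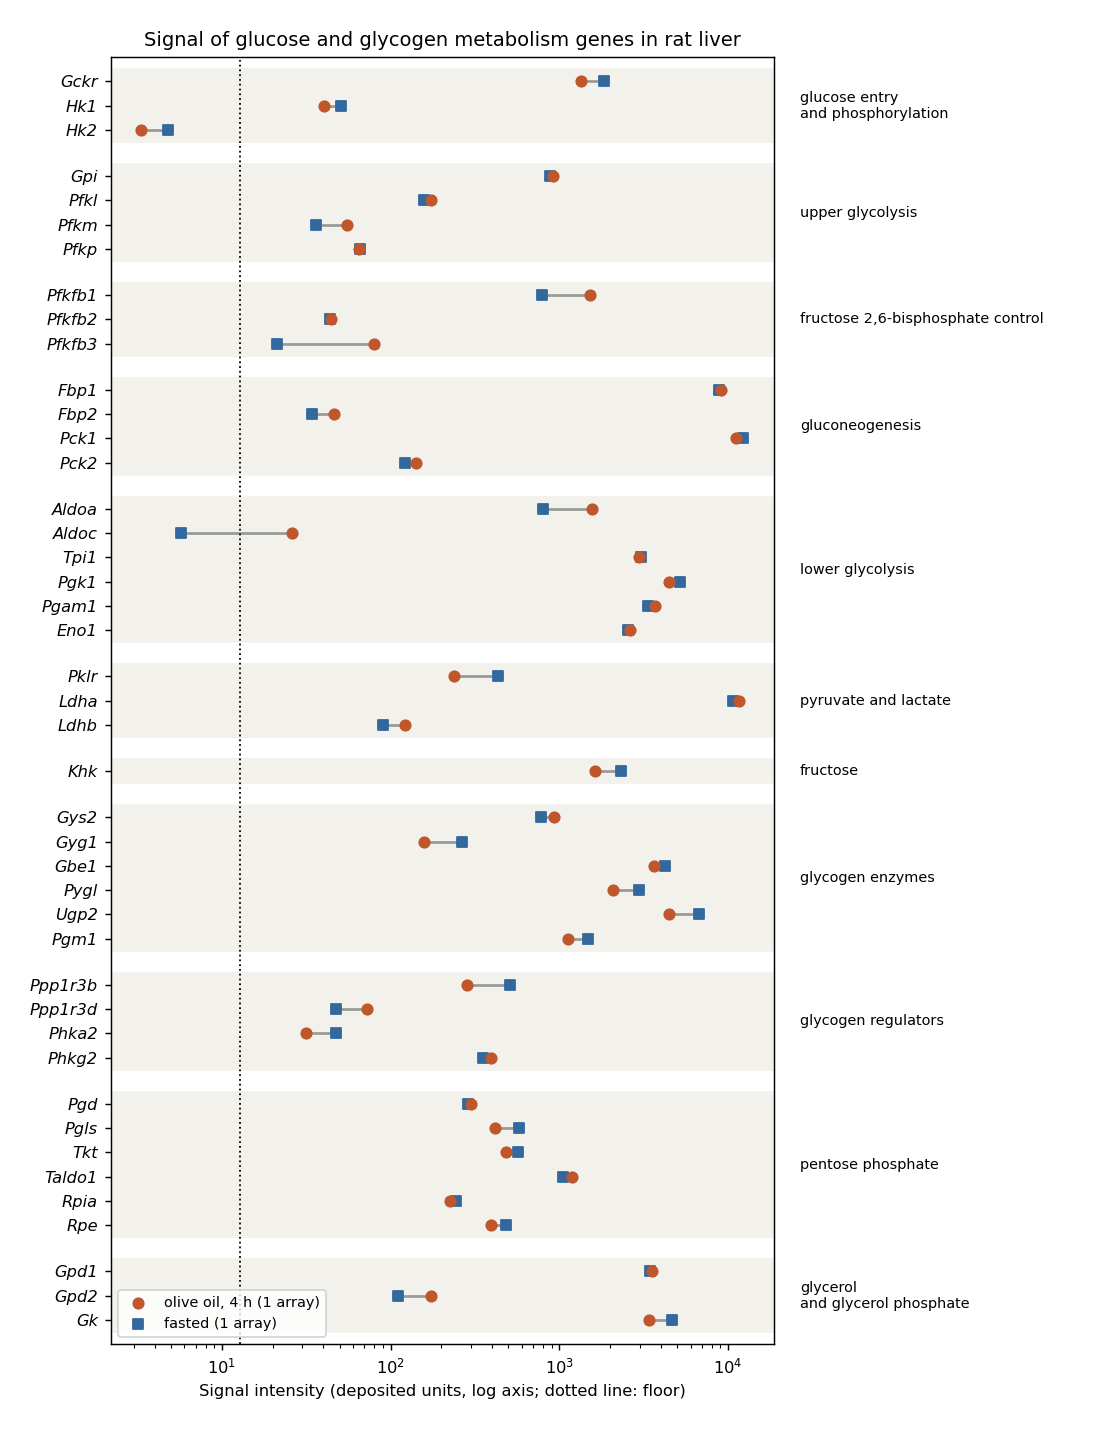
Signal of each of the 43 genes on the olive oil array (circles) and the fasted array (squares), grouped by branch of metabolism, on a log axis in the deposited intensity units. Each symbol is 1 array, so there are no error bars, and the dotted line is the floor of 12.8. Most pairs nearly coincide, while Pfkfb1, Aldoa, Pklr, Ppp1r3b and Gyg1 lie visibly apart.

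The 9 measured genes past 1.5-fold belonged to different branches. Those higher after olive oil were Aldoa, Pfkfb1, Gpd2, Pfkm and Ppp1r3d (the last with the opposite sign when its probe sets were averaged), and those lower were Pklr, Ppp1r3b, Gyg1 and Ugp2. Of the 4 lower genes, 3 act on glycogen, as do 9 of the 38 measured genes. Of those 9, 3 (33.3%) were lower by 1.5-fold or more, against 10.1% of all measured genes. By the same size, 1 (11.1%) was higher, against 9.46%. Ugp2, among the lower ones, was only just past the limit, at a log2 difference of -0.59. So few genes do not set the glycogen genes apart.

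**Figure D2:**
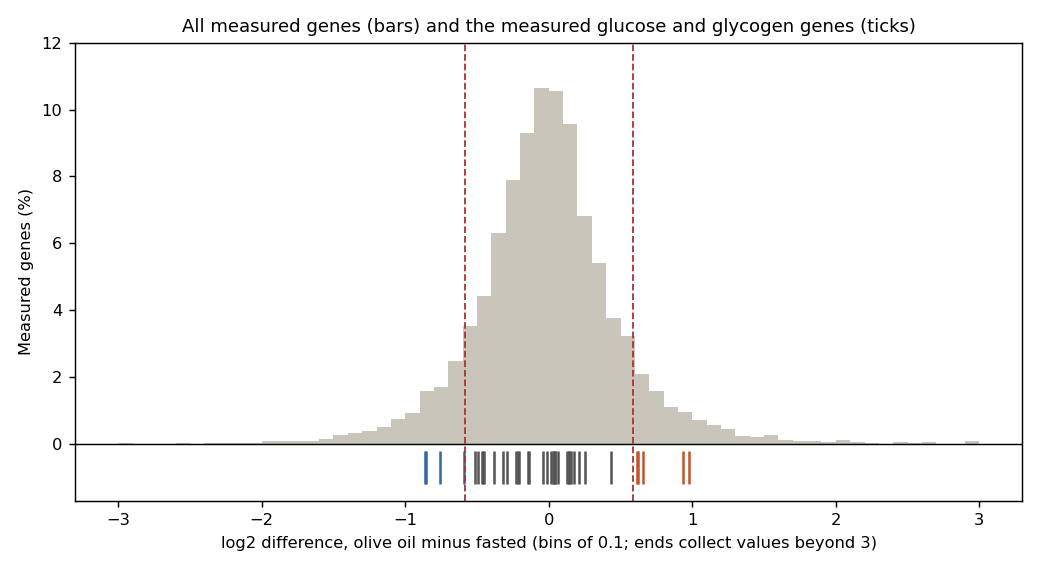
Distribution of the log2 difference, olive oil minus fasted, over the 9208 measured genes (bars, percent of genes in bins of 0.1), with each of the 38 measured glucose and glycogen genes as a tick below. Dashed lines mark 1.5-fold in either direction, and the ticks stay between -0.86 and 0.98.

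Glucose is trapped in liver cells by phosphorylation, and the genes for this step differed little. Gckr, which encodes a regulatory protein of glucose phosphorylation in liver, had a signal of 1351 after olive oil and 1846 in the fasted array, 1.37-fold lower. Hk1, the hexokinase found in most tissues, stood at 40.5 after olive oil and 50.6 in the fasted array. Its other probe set, which was below the filter, had the opposite sign, 17.9 after olive oil and 7.90 in the fasted array. Hk2, the hexokinase of muscle and fat, was below the floor on both arrays, with 3.30 after olive oil and 4.80 in the fasted array. The array's 3 control probe sets for hexokinase were also below the floor, between 5.90 and 9.50 in the olive oil array and between 3.30 and 5.60 in the fasted array. Of the genes of this step on the array, only Gckr had a signal far above the filter, with Hk1 near it and Hk2 below the floor.

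Upper glycolysis was nearly level. Gpi, which converts glucose 6-phosphate to fructose 6-phosphate, had 922.4 after olive oil and 884.3 in the fasted array. Pfkl, the liver form of phosphofructokinase, had 174.6 after olive oil and 156.9 in the fasted array, 1.11-fold higher. Pfkp, the platelet form, was 1.01-fold apart, at 65.4 after olive oil and 66.0 in the fasted array. Pfkm, the muscle form, was 1.54-fold higher on a dim probe set, at 55.3 after olive oil and 36.0 in the fasted array. Its other 2 probe sets, neither of them measured, differed by -0.17 and 0.01 on the log2 scale, and over all 3 the mean was 0.15. Of the phosphofructokinases, only the muscle form was past 1.5-fold, and only on 1 of its probe sets.

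The genes for the bifunctional enzymes that make and break down fructose 2,6-bisphosphate included Pfkfb3, whose difference was the largest of the 43 as reported but not with no floor, with a higher floor or with probe sets averaged. Pfkfb1, the liver form, had a signal of 1523 after olive oil and 795.0 in the fasted array, 1.92-fold higher, and ranked 351st from the top of the 9208 measured genes. Pfkfb3, an inducible form with high kinase activity, had 79.3 after olive oil and 21.2 in the fasted array, 3.74-fold higher, and a second probe set had 29.8 after olive oil and 3.00 in the fasted array. Pfkfb3 lay just under the filter on dim signals and is not among the 38 measured genes. The size of its log2 difference, 1.90, depended on how dim values were handled: it was 0.86 when the floor was raised to the 50th percentile and 1.36 when 16 was added to each signal. Its remaining probe set was below the floor on both arrays. Pfkfb2, the heart form, was level on its representative probe set, at 44.3 after olive oil and 43.8 in the fasted array, and its other 3 probe sets were dim and disagreed, with log2 differences of 0.85, -0.52 and -1.61. Pfkfb1 and Pfkfb3 were therefore both higher after olive oil, with a firm signal only for Pfkfb1.

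The promoter window of Pfkfb3, from 250 bases before to 50 bases after the annotated start, is given because this gene was past 1.5-fold higher in all 9 alternative settings. It lies at chr17:71944683-71944982 on the + strand of GRCr8, from RefSeq. Capitals mark CACGTG, the E-box bound by several helix-loop-helix factors, at positions -42 to -37 from the start.
Pfkfb3: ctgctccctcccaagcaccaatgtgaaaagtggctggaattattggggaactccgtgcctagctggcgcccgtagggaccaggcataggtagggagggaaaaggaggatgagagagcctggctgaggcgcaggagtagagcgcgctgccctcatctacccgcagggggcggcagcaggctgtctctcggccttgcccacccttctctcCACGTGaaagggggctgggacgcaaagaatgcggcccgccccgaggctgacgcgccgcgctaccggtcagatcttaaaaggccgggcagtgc
This motif was in the windows of 5 of the 40 listed genes that had one. By window, it was in 11.4% of the 44 windows of listed genes and in 6.42% of all 33469 promoter windows. A match is a stretch of letters and does not show that a factor is bound.

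**Figure D3:**
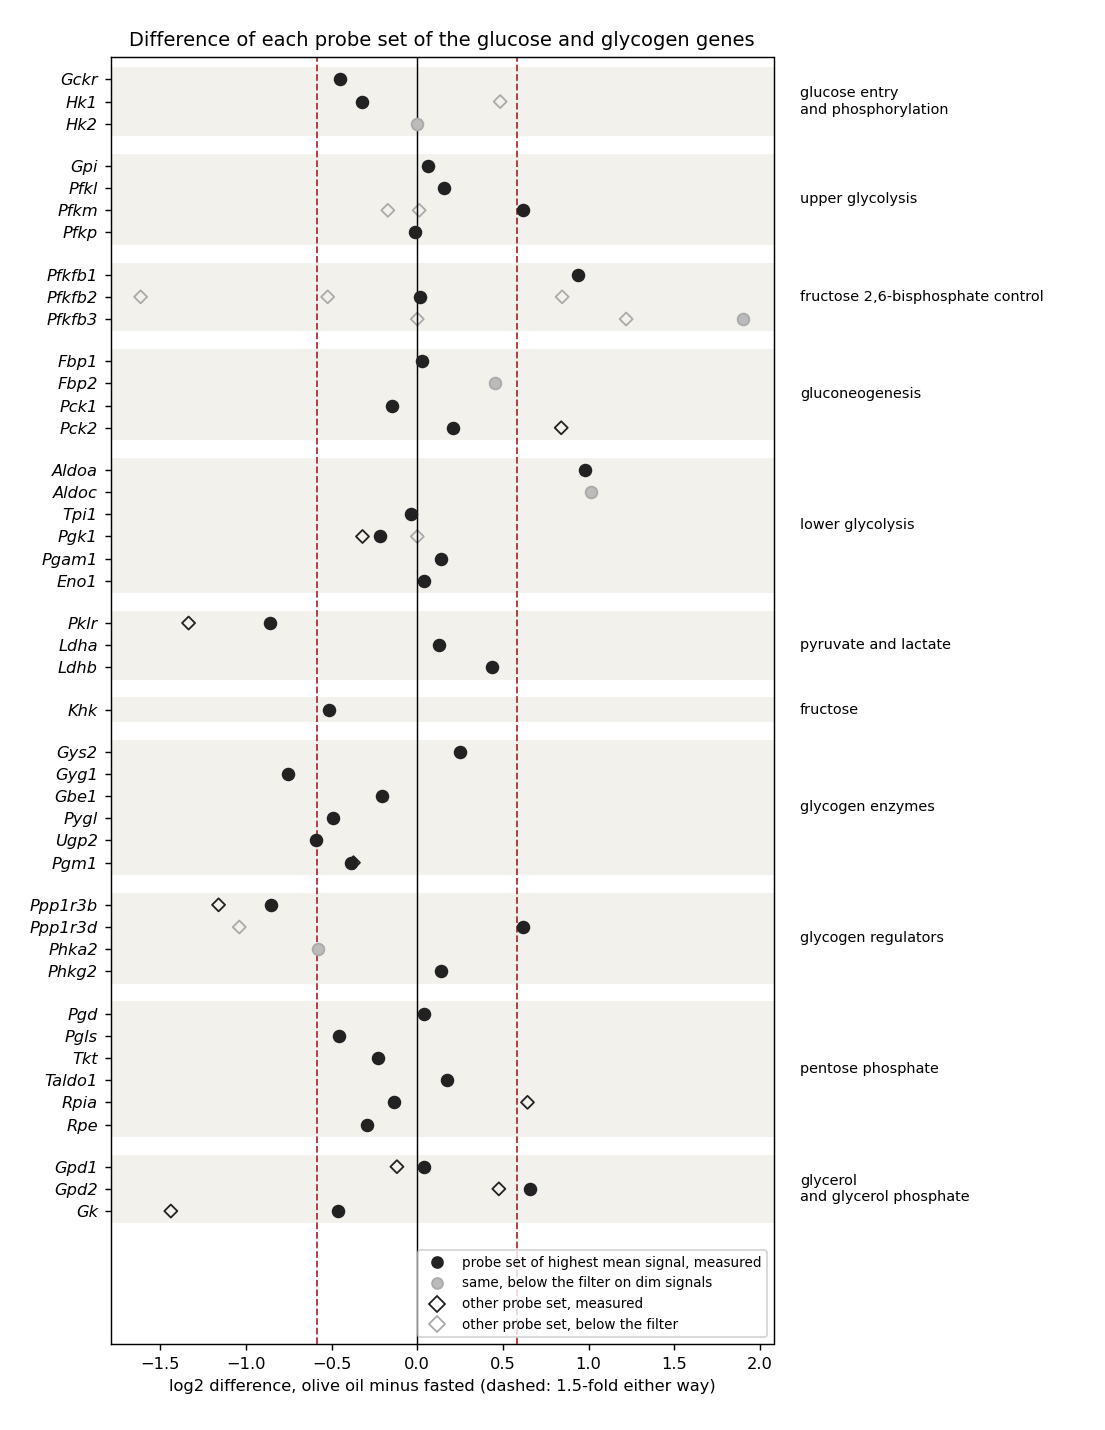
The log2 difference, olive oil minus fasted, for every probe set of the 43 genes. Filled circles are the probe sets of highest mean signal and open diamonds the others, in grey where a probe set was below the filter, and dashed lines mark 1.5-fold. Pklr, Ppp1r3b and Gk have a second measured probe set farther from 0 on the same side, while those of Rpia and Gpd1 have opposite signs.

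Gluconeogenic enzyme genes were level between the arrays. Fbp1, which removes the phosphate that phosphofructokinase adds, had 9065 after olive oil and 8902 in the fasted array, 1.02-fold higher. Pck1, the cytosolic enzyme that turns oxaloacetate into phosphoenolpyruvate, had 11140 after olive oil and 12346 in the fasted array, 1.11-fold lower. Neither of these genes differed by more than the scatter between probe sets. Pck2, the mitochondrial form, had 141.0 after olive oil and 121.8 in the fasted array, while its dimmer second probe set had 58.9 after olive oil and 32.9 in the fasted array, a log2 difference of 0.84. Fbp2, the muscle form, was below the filter, with 46.5 after olive oil and 34.0 in the fasted array.

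The Pck1 promoter is shown as that of a classic fasting gene whose transcript stayed level. The window is chr3:182348322-182348621, + strand, of the same build and source. Capitals mark ACGTCA, the core of the cyclic AMP response element, at -91 to -86, and CACGGG at -220 to -215.
Pck1: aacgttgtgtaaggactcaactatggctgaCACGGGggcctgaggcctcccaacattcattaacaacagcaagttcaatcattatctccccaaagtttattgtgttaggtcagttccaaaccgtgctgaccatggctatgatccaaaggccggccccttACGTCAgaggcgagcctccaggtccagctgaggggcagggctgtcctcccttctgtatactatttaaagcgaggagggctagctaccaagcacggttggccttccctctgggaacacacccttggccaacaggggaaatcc
ACGTCA on either strand was in the windows of 4 of the 40 listed genes, Gk, Ldha, Pck1 and Tpi1. By window, it was in 9.09% of the 44 windows of listed genes and in 7.94% of all windows. None of these 4 genes was 1.5-fold apart on its representative probe set. Of all measured genes, 9.46% were higher and 10.1% lower by that size, so 4 genes are too few to read.

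In lower glycolysis, shared by both directions of flux, Aldoa stood apart from its neighbours. Aldoa, aldolase A, the form typical of muscle and of dividing cells, had 1569 after olive oil and 796.7 in the fasted array, 1.97-fold higher, the largest increase among the 38 measured genes and the 318th highest of all measured genes. Aldoc, the brain form, was below the filter, at 25.9 in the olive oil array and under the floor at 5.70 in the fasted array, which makes its size a matter of the floor. Both of these genes were higher in the olive oil array. The remaining listed enzymes of the chain were between 1.03-fold and 1.16-fold apart, among them triose phosphate isomerase, phosphoglycerate mutase and enolase. Tpi1 had 2982 after olive oil and 3063 in the fasted array. Pgam1 had 3720 after olive oil and 3374 in the fasted array, and Eno1 had 2623 after olive oil and 2550 in the fasted array. Pgk1, phosphoglycerate kinase, was slightly lower on both of its measured probe sets, with 4455 after olive oil and 5170 in the fasted array on the brighter one.

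Aldoa, Pfkm and Pfkfb3 are also expressed outside hepatocytes. Of 5 leukocyte markers, 3 were measured, with a summed signal of 437.1 after olive oil and 253.5 in the fasted array. Within this list the neutrophil genes S100a9, with 253.1 after olive oil and 62.9 in the fasted array, and S100a8, with 75.7 after olive oil and 32.0 in the fasted array, were higher. The general leukocyte gene Ptprc was lower, with 108.3 after olive oil and 158.6 in the fasted array. The summed signal of the 5 measured macrophage markers was 2871 after olive oil and 2515 in the fasted array, most of it from Clec4f, with 1882 after olive oil and 1552 in the fasted array. Adgre1 was lower, with 119.1 after olive oil and 156.6 in the fasted array. The 4 measured endothelial markers went both ways, with Lyve1 1.52-fold and Pecam1 1.10-fold higher, and Kdr 1.46-fold and Stab2 1.16-fold lower. Among the 5 measured stellate cell markers, Dcn was 1.79-fold higher and Lrat 1.5-fold lower, and the others were within 1.5-fold. None of the 4 skeletal muscle markers was measured. Ckm had 44.9 after olive oil and 13.5 in the fasted array, and Tnnt3 had 23.1 after olive oil and 11.7 in the fasted array. Acta1 went the other way, with 5.20 after olive oil and 16.3 in the fasted array, and Myh4 was below the floor on both, with 1.70 after olive oil and 2.10 in the fasted array. No marker was at 0. The part of these cells in the differences of Aldoa, Pfkm and Pfkfb3 was not tested.

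At the end of glycolysis, the pyruvate kinase gene was lower and the lactate dehydrogenase genes were not. Pklr, the liver and red cell form of pyruvate kinase, had 238.6 after olive oil and 433.3 in the fasted array, 1.82-fold lower, and was the lowest of the 38 measured genes and the 413th lowest of all. Its second measured probe set had 81.9 after olive oil and 206.6 in the fasted array, a log2 difference of -1.33, so that both probe sets were past 1.5-fold in the same direction. Ldha, the lactate dehydrogenase of liver and muscle, had 11635 after olive oil and 10653 in the fasted array. Ldhb, the heart form, had 122.2 after olive oil and 90.4 in the fasted array, 1.35-fold higher.

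The Pklr promoter is shown because the rat gene is the textbook example of a carbohydrate response element, a paired site bound by ChREBP, the factor encoded by Mlxipl, with its partner Mlx. The window is chr2:176841014-176841313, + strand. Capitals mark CACGGG on either strand, which was present on the + strand at -168 to -163 and on the other strand, where it reads CCCGTG, at -157 to -152.
Pklr: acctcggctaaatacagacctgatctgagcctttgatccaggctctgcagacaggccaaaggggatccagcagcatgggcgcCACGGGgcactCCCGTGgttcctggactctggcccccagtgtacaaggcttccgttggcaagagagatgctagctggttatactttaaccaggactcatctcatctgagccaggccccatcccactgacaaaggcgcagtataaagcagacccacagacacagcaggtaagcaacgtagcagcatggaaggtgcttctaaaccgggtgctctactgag
CACGGG on either strand was in the windows of 11 of the 40 listed genes. By window, it was in 25% of the 44 windows of listed genes and in 9.63% of all windows. Among those 11, of which Hk2 and Phka2 were below the filter, only Pklr was past 1.5-fold on a measured representative probe set. Of all measured genes, 9.46% were higher and 10.1% lower by that size. A single gene among so few does not set the carriers of the motif apart. Mlxipl, named after its values were seen, had 213.9 after olive oil and 268.1 in the fasted array, and Mlx had 1168 after olive oil and 724.6 in the fasted array, 1.61-fold higher.

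Of the 6 genes for glycogen enzymes, 5 had a lower signal after olive oil, with a median log2 difference of -0.44, while 4760 of all 9208 measured genes were lower and their median was -0.01. Of the 3 measured regulators, 2 had a positive difference, with a median of 0.14, which was -0.21 when probe sets of a gene were averaged. Over the 9 measured enzymes and regulators of the list, 6 were lower and 3 higher, with a median of -0.38. The lean did not extend to the glycogen genes outside the list, of which 6 of 10 measured had a positive difference, with a median of 0.06. Ugp2, which makes UDP-glucose, the unit added to glycogen, had 4473 after olive oil and 6728 in the fasted array, 1.5-fold lower. Gyg1, glycogenin, the protein primer on which a glycogen particle is begun, had 157.2 after olive oil and 265.7 in the fasted array, 1.69-fold lower and the 560th lowest of all measured genes. Pgm1, phosphoglucomutase, which joins glucose 6-phosphate and glucose 1-phosphate, had 1133 after olive oil and 1479 in the fasted array, and its second probe set gave nearly the same log2 difference, -0.37 beside -0.38. Gbe1, the branching enzyme, had 3661 after olive oil and 4226 in the fasted array. The enzyme of breakdown leaned the same way as those of synthesis: Pygl, liver glycogen phosphorylase, had 2097 after olive oil and 2954 in the fasted array, 1.41-fold lower. The exception was Gys2, liver glycogen synthase, with 929.4 after olive oil and 780.8 in the fasted array, 1.19-fold higher.

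The Gyg1 promoter is shown because it also holds CACGTG, here in a gene that was lower where Pfkfb3 was higher. It is chr2:104582728-104583027 on the - strand, printed 5' to 3' along the gene, with the motif in capitals at -99 to -94.
Gyg1: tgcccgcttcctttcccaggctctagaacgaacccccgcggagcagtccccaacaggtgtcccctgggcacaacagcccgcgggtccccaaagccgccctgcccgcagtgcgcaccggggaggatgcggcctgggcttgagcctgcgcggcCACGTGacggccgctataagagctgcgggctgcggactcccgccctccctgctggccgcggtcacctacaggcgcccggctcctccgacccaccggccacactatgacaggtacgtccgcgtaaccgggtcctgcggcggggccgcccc
The other listed genes with this motif were Ldha, Ppp1r3c and Ppp1r3d. It was thus present in windows of genes that were higher, lower and level.

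Among the regulators of glycogen, the targeting subunits of protein phosphatase 1 had opposite signs on their representative probe sets. Ppp1r3b, the liver subunit that brings the phosphatase to glycogen, where it activates the synthase, had 283.8 after olive oil and 512.5 in the fasted array, 1.81-fold lower. Its second measured probe set had 30.3 after olive oil and 67.7 in the fasted array, a log2 difference of -1.16. Both probe sets of Ppp1r3b were past 1.5-fold lower. Ppp1r3d, a widely expressed subunit, had 72.4 after olive oil and 47.2 in the fasted array, 1.53-fold higher. Its other probe set, below the filter, had 10.3 after olive oil and 26.3 in the fasted array, and the mean of both log2 differences was -0.21, so its direction depended on the probe set. Phosphorylase kinase, which activates phosphorylase, was seen through Phkg2, its liver catalytic subunit, with 391.6 after olive oil and 355.6 in the fasted array, and through Phka2, its liver regulatory subunit, below the filter with 31.6 after olive oil and 47.2 in the fasted array.

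The pentose phosphate pathway, which makes NADPH for lipid synthesis and ribose for nucleotides, was level: all 6 genes were within 1.5-fold, with a median log2 difference of -0.18. Pgd, which makes NADPH, had 297.9 after olive oil and 289.7 in the fasted array. Pgls, which acts before it, had 418.6 after olive oil and 575.7 in the fasted array, 1.38-fold lower. Tkt, transketolase, had 483.9 after olive oil and 567.9 in the fasted array. Taldo1, transaldolase, had 1185 after olive oil and 1051 in the fasted array, so the 2 enzymes that shuffle carbon back to glycolysis differed slightly and with opposite signs. Rpe, ribulose phosphate epimerase, had 393.4 after olive oil and 482.1 in the fasted array. Rpia, the isomerase that makes ribose 5-phosphate, had 223.7 after olive oil and 245.9 in the fasted array, but its second measured probe set had 151.5 after olive oil and 97.0 in the fasted array, a log2 difference of 0.64. No direction could be given for Rpia.

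Fructose enters liver metabolism through Khk, ketohexokinase, which had 1629 after olive oil and 2325 in the fasted array, 1.43-fold lower. Several genes next to it also had lower signals. Sord, which makes fructose from sorbitol, had 3306 after olive oil and 5113 in the fasted array, 1.55-fold lower. Tkfc, the triokinase of fructose use, named after its values were seen, had 788.6 after olive oil and 1143 in the fasted array. Galm, the mutarotase that starts galactose use, had 1210 after olive oil and 2069 in the fasted array, 1.71-fold lower. Of 10 measured genes of fructose, galactose and mannose use other than Khk, 7 had a negative difference. The other 3, Pmm1 and Pmm2 of mannose use and Akr1b1, had a positive one, and the median log2 difference of the 10 was -0.40. At 1.5-fold, 2 of the 10 (20%) were lower, against 10.1% of all measured genes, and none was higher, against 9.46%.

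Glycerol enters glucose and lipid metabolism as glycerol 3-phosphate, and its genes differed from one another. Gk, glycerol kinase, had 3389 after olive oil and 4678 in the fasted array, 1.38-fold lower, on its representative probe set. Its second measured probe set had 1243 after olive oil and 3370 in the fasted array, a log2 difference of -1.44, so that both were lower but by very different sizes. Gpd2, the mitochondrial glycerol 3-phosphate dehydrogenase, had 174.1 after olive oil and 110.3 in the fasted array, 1.58-fold higher. Its second probe set, with 164.0 after olive oil and 117.9 in the fasted array, differed by 0.48 on the log2 scale, which is under 1.5-fold. Gpd1, the cytosolic form, was level, with 3546 after olive oil and 3455 in the fasted array. Outside the list, Gpam, which uses glycerol 3-phosphate for glycerolipid synthesis, had 43.2 after olive oil and 139.2 in the fasted array, 3.22-fold lower. Aqp9, the glycerol channel of liver, named after its values were seen, had 2438 after olive oil and 3217 in the fasted array, 1.32-fold lower.

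Of 84 other genes of the same pathways, 56 were measured, of which 9 (16.1%) were higher by 1.5-fold or more, against the 9.46% of all genes, and 8 (14.3%) lower by as much, against 10.1%. Their median log2 difference was -0.09. The widest increases were those of Ppargc1a and Got1, and the widest decrease was that of Gpam. Got1, the cytosolic aspartate aminotransferase, had 9525 after olive oil and 2337 in the fasted array, and Ppargc1a, a coactivator of fasting genes, had 164.2 after olive oil and 35.0 in the fasted array. The fasted signal of Ppargc1a was under the filter signal of 41.4, and the olive oil signal of Gpam, 43.2, was just above it. The sizes of these 2 differences therefore rest on a dim value. Foxo1, a transcription factor of gluconeogenic genes that insulin restrains, had 438.9 after olive oil and 239.0 in the fasted array, 1.84-fold higher. Lpin1, a phosphatidate phosphatase and coactivator, was 2.04-fold higher.

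The transporter genes for glucose release were within 1.5-fold. Slc2a2, the main glucose transporter of hepatocytes, had 4611 after olive oil and 3499 in the fasted array, 1.32-fold higher, and Slc37a4, which carries glucose 6-phosphate into the endoplasmic reticulum, had 1988 after olive oil and 1982 in the fasted array. Slc2a1, the transporter of most other tissues, was 1.52-fold lower on a dim probe set. Among side steps, Minpp1, which removes phosphate from inositol phosphates and bisphosphoglycerate, was 1.68-fold higher. Eno3, the muscle enolase, was 1.64-fold lower on a dim probe set, and H6pd, the pentose phosphate enzyme of the endoplasmic reticulum, was 1.5-fold higher. None of the 10 other measured glycogen genes was 1.5-fold apart. Of all measured genes, 9.46% were higher and 10.1% lower by that size, so 10 genes are too few to read. Pkm was not analysed here.

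**Figure D4:**
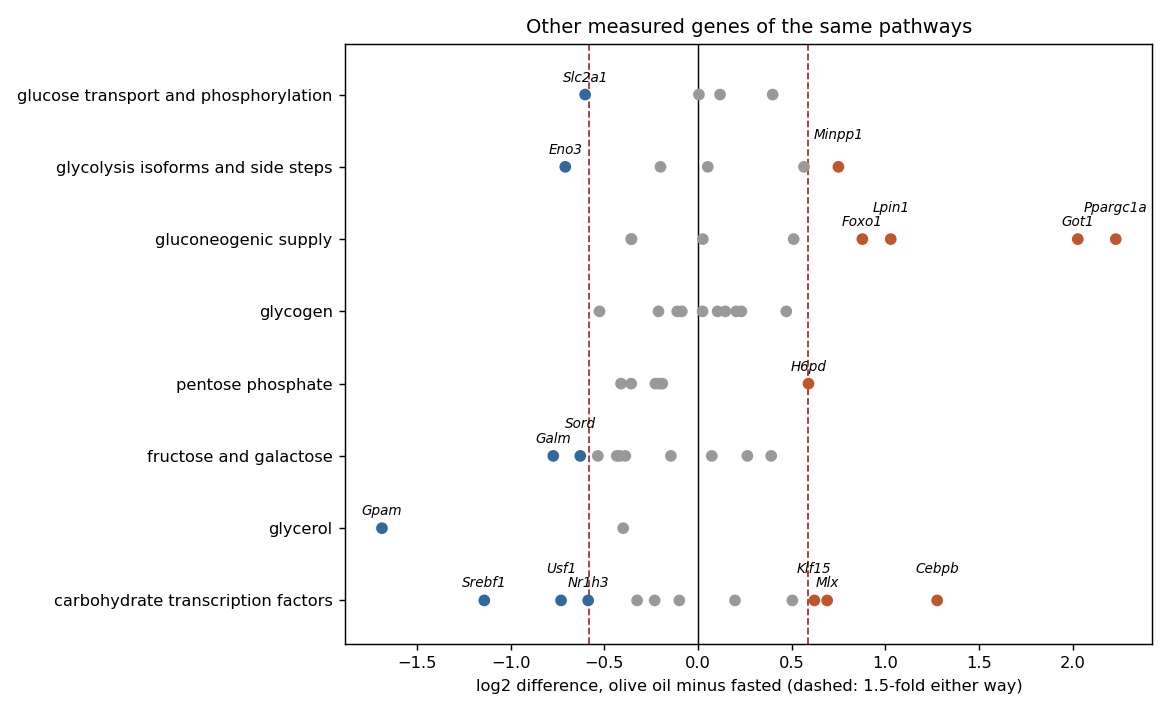
The log2 difference, olive oil minus fasted, of the 56 other measured genes of the same pathways, each a point, by group. Dashed lines mark 1.5-fold, genes past it are named, and the widest differences are those of Ppargc1a, Got1 and Gpam. Ppargc1a in the fasted array and Gpam in the olive oil array had dim signals.

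How the differences depended on handling of the values is plotted for every gene past 1.5-fold. Of the 9 measured genes, 6 stayed past 1.5-fold in the same direction in all 9 alternative settings for level and probe set choice, namely Aldoa, Pfkfb1, Pklr, Ppp1r3b, Gyg1 and Ugp2. Ugp2 did so by a narrow margin, its log2 difference being -0.59 where the limit is 0.58 in size. Aldoa, Pfkfb1, Gyg1 and Ugp2 have 1 probe set each and signals above both floors. Settings of floor or probe set choice could not change these values, and only the offset and the normalizations could. The other 3 measured genes, Gpd2, Pfkm and Ppp1r3d, stayed past 1.5-fold in 7, 3 and 4 of the settings.

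**Figure D5:**
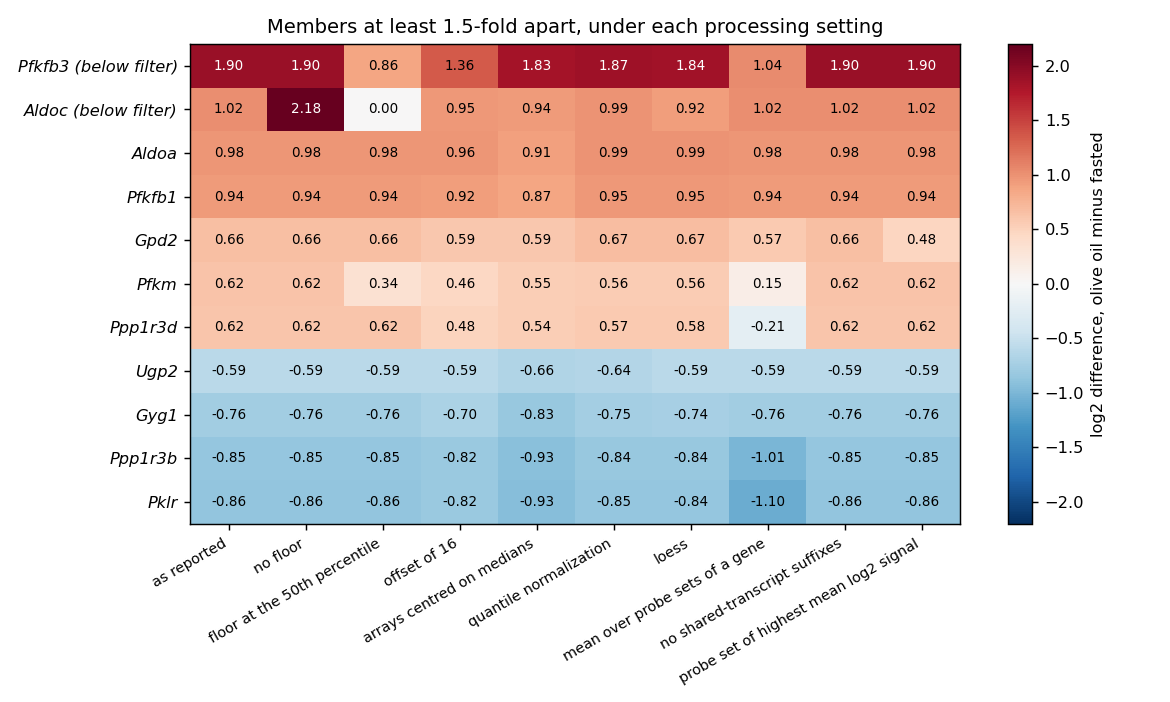
The log2 difference, olive oil minus fasted, of each gene at least 1.5-fold apart (lines) as reported and under 9 alternative settings (columns), printed in the cells and shown by colour. The 4 lower genes, Aldoa, Pfkfb1 and Pfkfb3 stay past 1.5-fold in every column, the last with a size that varies, while Aldoc, Pfkm, Gpd2 and Ppp1r3d do not. Aldoa, Pfkfb1, Gyg1 and Ugp2 could not change in the columns of floor and probe set choice.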

How the data were processed

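The deposited values are linear signal intensities, 1 for each probe set of an array, made with Affymetrix Expression Console per the submitters' processing notes. For its algorithm and version the sources used here give nothing. The mean intensity after trimming 2% at each end was 200.1 on both arrays, as after scaling to a common level, which hides any shift shared by all transcripts.

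Of the probe sets, 57 controls were set aside. For the other 31042, intensities below the 25th percentile, 12.8, were raised to it and log2 was taken. Differences are olive oil minus fasted. Symbols came from the platform annotation, updated by gene ID through RefSeq GRCr8 (20758 of 20826 single-gene probe sets). Alternatives were no floor, a higher floor, an offset, quantile or loess normalization, median centring, other choices of probe set, other filters and other sizes. A test cannot be made from single arrays, and a size of 1.5-fold was used instead. The members and lists were chosen with earlier results of these data known. All listed genes are named; of other pathway genes, those past 1.5-fold and 7 fixed genes, others being marked. In promoters, 7 motifs were searched on both strands, a choice made after the differences were known. Besides those shown in capitals, the forkhead motif TGTTTAC was in 2 listed genes (4.55% of the 44 windows of listed genes, 3.78% of all windows). By the same measures, the glucocorticoid receptor motif AGAACA was in 5 genes (11.4% and 20.7%). The HNF1 motif GTTAAT was in 1 gene (2.27% and 7.45%), and the box called TATAAA in 4 genes (9.09% and 14.2%). Matches of CACGGG and ACGTCA overlapped in Gk. Functions were tested on simulated arrays. Python 3.11.15, numpy 2.4.6, pandas 2.3.3, statsmodels 0.14.6 and matplotlib 3.10.9 were used.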

Additional observations from a re-analysis of the deposited data

How the results depend on the processing

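No paired analysis was possible because each condition was a single array. The count of genes at least 1.5-fold higher, 5, was 3 with arrays centred on their medians (7.61% of all genes), 3 after loess (9.47%), 2 with probe sets of a gene averaged (9.19%) and 2 with a filter at the 75th percentile (7.01%). At 2-fold there were 0 higher (3.25% of all genes) and 0 lower (2.94%), and with the lowest limit of size tried 6 were higher (20.02%) and 10 lower (22.2%). The median log2 difference, 0.0016, was -0.15 with the filter at the 75th percentile, which kept 29 of the 38 genes. Ppp1r3d turned from 0.62 to -0.21 with the mean over its probe sets, which takes in its dim second one. In the other settings tried these counts stayed within 1.5 times and the median within 0.1. Of 43 genes, 32 kept their sign in all 9 settings of level and probe set, and 14 single values in 11 genes moved by more than the probe set scatter of 0.35. A gene with a single probe set and both signals above the floors could not change in the floor or probe set settings. The deposited values carry no detection calls, so dim genes are limited by a background that cannot be read from them.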

Other observations

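Transcription factors of carbohydrate genes other than Mlx differed in both directions. Cebpb, a factor induced in fasting and by inflammation, had 3669 after olive oil and 1515 in the fasted array, 2.42-fold higher. Klf15, a fasting-induced factor, had 2403 after olive oil and 1562 in the fasted array, 1.54-fold higher. Srebf1, which drives lipogenic and glycolytic genes, had 133.6 after olive oil and 294.8 in the fasted array, 2.21-fold lower. Usf1, an E-box factor, was 1.66-fold lower and Nr1h3, the liver X receptor alpha, 1.5-fold lower. Of 11 measured factors, 3 (27.3%) were higher by 1.5-fold or more, against 9.46% of all measured genes, and 3 (27.3%) lower by as much, against 10.1%.

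Among genes below the filter and named after their values were seen, Pfkfb4, another bifunctional enzyme of fructose 2,6-bisphosphate, had 39.7 after olive oil and 9.90 in the fasted array. G6pc3, the widely expressed glucose 6-phosphatase, had 4.50 after olive oil and 58.5 in the fasted array. Pygm, the muscle phosphorylase, had 41.8 after olive oil and 19.0 in the fasted array. Of the 9 listed genes with 2 or more measured probe sets, 7 had the same sign on all of them and 2, Rpia and Gpd1, did not.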
